A study of Mus musculus with 18 samples.

Results

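The genes described here were Fos, Fosb, Fosl1, Jun, Junb, Jund, Atf3, Egr1, Ier2 and Ier3, which are subunits of the AP-1 transcription factor and other immediate early genes. They were chosen by symbol, each matched 1 row, and they made up 10 of the 13816 gene IDs in the authors' deposited table. The table came from RNA sequencing of cells sorted from mouse dorsal skin, in 6 groups of 3 samples: DPCP EpSCs, DPCP Germ and DPCP Bulge at day 2, and Control EpSCs, Control Germ and Control Bulge at day 0. DPCP stands for diphenylcyclopropenone, a chemical used to provoke contact allergy of the skin, and the study asked how follicle stem cells respond to such inflammation. The labels call the cells of every group dermal keratinocytes, do not spell out EpSCs, and give neither the strain, age or sex of the mice nor the DPCP dose. Bulge and germ are, in the field, the stem cell niche of the hair follicle and the cell cluster beneath it. The sorting markers are not named, and nothing says that replicates were different mice, so the p-values may cover only technical spread. All DPCP samples were from day 2 and all controls from day 0, so the effect of DPCP cannot be told apart from that of the collection day.

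AP-1 is a dimer of a Jun protein with a Fos, Jun or ATF protein, and it binds DNA through a basic leucine zipper. Most of its genes are immediate early genes: growth factors, cytokines, stress and wounding switch them on within minutes through MAP kinases and factors such as SRF and CREB, without new protein synthesis, and their RNAs decay quickly. In epidermis, AP-1 is known for its part in proliferation, differentiation and inflammation. The enzymatic and mechanical dissociation of skin also induces these genes, and these samples were digested with trypsin before sorting.

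Promoter sequence is shown for some of the members that fell in EpSCs (Fos, Fosb, Jun and Atf3) and for Ier3, which did not. The windows of Junb and Jund, which also fell there, are not shown, and Jund held none of the motifs described below. The lines give the 250 bases before the RefSeq transcription start in the GRCm38.p6 build, written 5′ to 3′ on the gene's strand. Capitals mark TGACG on either strand, the core of a cyclic AMP response element, and TGACATCA, which Jun holds and which is known as an AP-1 site of the Jun promoter.
Fos, chr12:85473640-85473889, plus strand: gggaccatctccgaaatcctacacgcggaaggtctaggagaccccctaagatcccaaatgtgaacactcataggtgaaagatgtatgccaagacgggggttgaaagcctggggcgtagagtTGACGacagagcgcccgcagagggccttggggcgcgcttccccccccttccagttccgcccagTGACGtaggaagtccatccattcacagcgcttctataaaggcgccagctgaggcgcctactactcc
Fosb, chr7:19310046-19310295, minus strand: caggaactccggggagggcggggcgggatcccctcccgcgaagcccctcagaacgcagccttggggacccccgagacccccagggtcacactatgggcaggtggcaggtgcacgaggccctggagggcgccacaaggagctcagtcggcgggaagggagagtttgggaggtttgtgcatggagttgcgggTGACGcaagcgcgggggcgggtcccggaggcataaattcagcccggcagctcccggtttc
Jun, chr4:95052223-95052472, minus strand: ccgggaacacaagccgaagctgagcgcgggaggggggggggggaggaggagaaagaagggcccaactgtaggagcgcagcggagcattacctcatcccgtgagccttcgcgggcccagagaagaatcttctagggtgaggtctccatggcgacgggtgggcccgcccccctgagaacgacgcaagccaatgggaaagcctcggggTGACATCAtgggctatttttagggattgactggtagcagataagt
Atf3, chr1:191183334-191183583, minus strand: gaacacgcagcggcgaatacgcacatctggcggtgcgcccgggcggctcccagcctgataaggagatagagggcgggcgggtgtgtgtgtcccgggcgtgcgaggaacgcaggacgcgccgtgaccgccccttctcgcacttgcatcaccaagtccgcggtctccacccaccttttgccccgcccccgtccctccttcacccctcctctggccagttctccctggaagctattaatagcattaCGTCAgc
Ier3, chr17:35821463-35821712, plus strand: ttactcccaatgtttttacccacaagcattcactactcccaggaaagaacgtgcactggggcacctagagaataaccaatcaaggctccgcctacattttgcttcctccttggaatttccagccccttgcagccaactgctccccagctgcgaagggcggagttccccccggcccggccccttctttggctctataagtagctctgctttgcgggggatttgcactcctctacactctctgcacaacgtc

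The RefSeq table held such a window for 7 members: Fos, Fosb, Jun, Junb, Jund, Atf3 and Ier3. TGACG was found on either strand in 4 of the 7 windows (Fos, Fosb, Junb and Atf3), against 17.8% of all 32851 mouse promoter windows of the same length. Fos held it at 2 places, the first bases at −129 and −66 from the start, Fosb at −60, Junb at −106 and Atf3, on the opposite strand, at −7. TGACATCA was found in Jun alone among the 7, at −45, against 2.93% of all windows. A TATAAA box stood at −33 in Fos, against 12.4% of all windows. GGGCGG, the GC box, was found in 5 of 7, against 32.7%. None of the 7 windows held TGANTCA (6.75% of all windows), the full TGACGTCA (1.55%), which contains TGACG, or a CArG box (1.47%), the SRF site. Sequence farther upstream or after the start was not searched, so these genes may hold such sites outside the window. These letter matches describe the windows and do not show binding. The RefSeq start of Atf3 is an internal one, 34706 bases downstream of the outermost GENCODE start of the gene and 7 bases from the start of another of its 3 GENCODE transcripts. That of Jund lies at −1210 bases from its GENCODE start, upstream of it, and those of the other 5 lie within 30 bases of the gene's start. Which start these cells use was not tested.

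**Figure D1:**
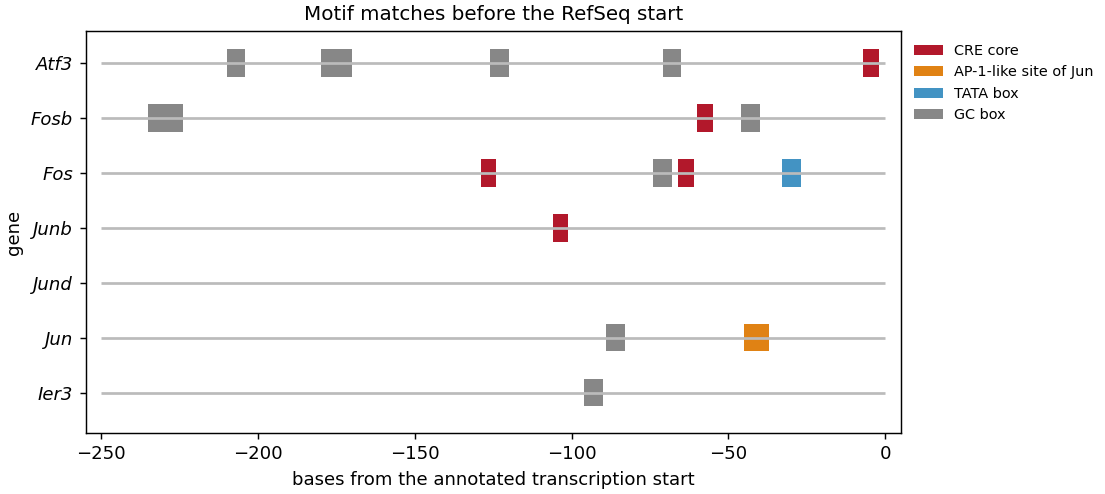
Motif matches in the 250 bases before the RefSeq start of the 7 members with a window; the x axis gives bases from the start and each coloured bar a match on either strand. TGACG (labelled CRE core) lies in Fos, Fosb, Junb and Atf3, TGACATCA in Jun, Ier3 has a GC box as its only match, and Jund has no match.

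EpSCs from DPCP skin had lower RNA for 9 of the 10 members than EpSCs from control skin, and Ier3 was the exception. No member rose there. Over all 13816 IDs, 20.0% were called lower in EpSCs, 19.9% higher and 39.9% in either direction (adjusted p under 0.05 in the authors' deposited table). The same 9 members passed an adjusted p under 0.10 and an unadjusted p under 0.05, against 48.6% and 48.9% of all genes. The members' median log2 fold change was −2.27 in EpSCs, against −0.0034 for all genes. In bulk samples, fewer cells of a type and less RNA per cell cannot be told apart. Values per sample were not used here, because the names of the library columns matched no sample label. The error given for each fold change is therefore the authors' p-value and an approximate 95% interval rebuilt from it.

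Among the Fos proteins, which need a Jun partner to bind DNA, Fosb fell most in EpSCs, at a log2 fold change of −3.49 in the authors' deposited table (11.2-fold lower, interval −5.03 to −1.95, limma with Benjamini-Hochberg adjusted p = 0.000221). Fosl1, which encodes FRA-1, was at −3.17 in that table (8.98-fold lower, interval −4.75 to −1.59, adjusted p = 0.000958). Fos, the founding member, was at −2.56 in the same table (5.92-fold lower, interval −3.77 to −1.36, adjusted p = 0.000491). The estimate of each of these Fos genes lay below that of every Jun gene, although the intervals of the families overlap. Only 4.24% of all genes had a lower fold change than Fos in EpSCs, and 2.22% a lower one than Fosb.

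The Jun genes encode the partners that can also pair with each other, and their estimated falls in EpSCs were smaller, a comparison between genes that was not tested. Junb, known as a weaker activator than Jun, was at −1.79 in the authors' deposited table (3.46-fold lower, interval −2.64 to −0.93, adjusted p = 0.000592). Jund, the Jun gene least dependent on stimulation, was at −1.75 in that table (3.37-fold lower, interval −2.48 to −1.03, adjusted p = 9.29e-05). Jun was at −1.32 there (interval −2.11 to −0.53, adjusted p = 0.00563), the smallest fall of the 9.

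Atf3, a stress-induced factor of the ATF family that can pair with Jun proteins, had the largest fall of the members, at −4.46 in the authors' deposited table (22.0-fold lower, interval −6.41 to −2.51, adjusted p = 0.000193). It ranked 146 from the lowest among all genes in EpSCs. Egr1, a zinc finger factor induced by growth factors, was at −2.52 in the same table (5.76-fold lower, interval −3.74 to −1.31, adjusted p = 0.000623). Ier2, an immediate early gene of less defined function, was at −2.01 (4.03-fold lower, interval −2.81 to −1.21) and had the smallest adjusted p of the members in the authors' deposited table, 5.12e-05. Ier3, an NF-kB-responsive gene that regulates cell survival, stood at 0.02 there (1.01-fold higher, interval −0.40 to 0.43, adjusted p = 0.958). Sorted by fold change in EpSCs, each member's interval overlapped that of its neighbour except between Jun and Ier3. Among the 9 that fell, the intervals of Atf3 and Jun, at the ends of the order, do not overlap. Overlap of intervals is not a test, and differences between genes were not tested, so the order of neighbours is not established.

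**Figure D2:**
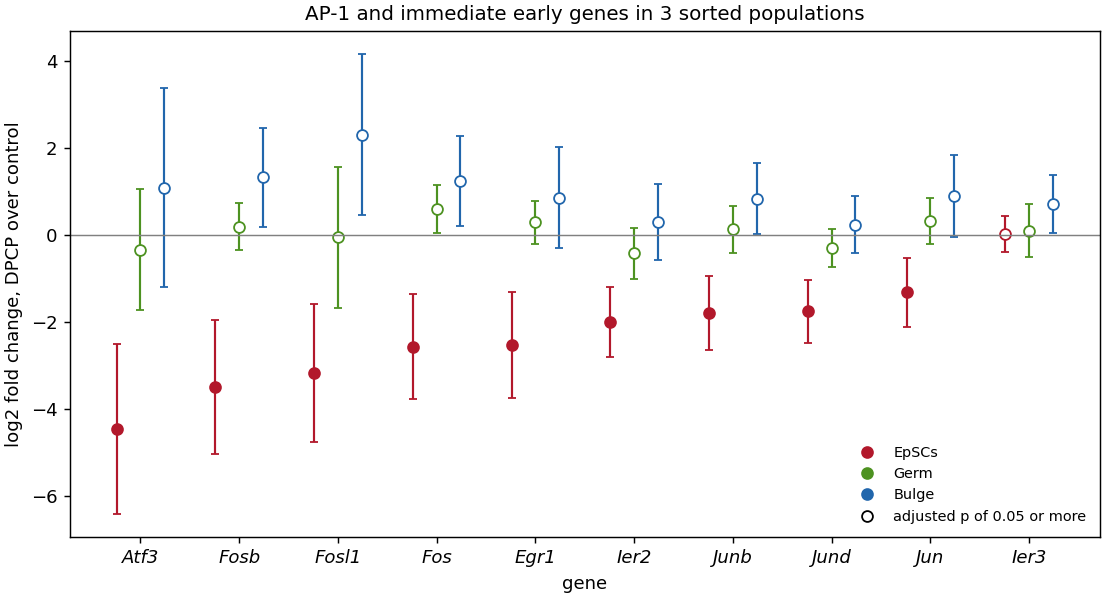
The log2 fold change of DPCP over control (y axis) for each member in EpSCs, Germ and Bulge, with approximate 95% intervals rebuilt from the deposited p-values; filled points have an adjusted p under 0.05. The EpSCs points of 9 genes lie between −4.46 and −1.32, while the Germ points lie between −0.42 and 0.60 and the Bulge points between 0.24 and 2.30.

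In Bulge, none of the 10 members passed the threshold, against 10.3% of all genes called in that comparison, 5.12% higher and 5.16% lower. At an adjusted p under 0.10, 2 members passed (Fos and Fosl1), against 19.5% of all genes. All 10 fold changes were positive, from 0.24 for Jund to 2.30 for Fosl1 in the authors' deposited table, and 49.0% of all genes had a positive one. The 9 members that fell in EpSCs thus had positive estimates in Bulge, a combination found in 5.39% of all genes and in 26.9% of the 2768 genes called lower in EpSCs. The members' median was 0.87, against −0.02 for all genes. At an unadjusted p under 0.05 there were 5 members (Fos, Fosb, Fosl1, Junb and Ier3), against 29.2% of all genes. Fosl1 stood at 2.30 in the authors' deposited table (4.93-fold, interval 0.45 to 4.15, adjusted p = 0.0864), and 97.2% of all genes had a lower fold change. Fosb stood at 1.32 in that table (interval 0.19 to 2.45, adjusted p = 0.108) and Fos at 1.24 (interval 0.21 to 2.28, adjusted p = 0.0962). Atf3, which fell most in EpSCs, had the widest interval in Bulge, from −1.21 to 3.37 around 1.08 (adjusted p = 0.556 in the authors' deposited table). Egr1 at 0.85 and Ier2 at 0.30 had adjusted p = 0.327 and 0.678 in that table. Jun stood at 0.89, Junb at 0.84 and Ier3 at 0.71 in the same table, at adjusted p = 0.195, 0.157 and 0.139.

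In Germ, the members' fold changes lay close to 0, and none passed the threshold, against 1.06% of all genes, nor an adjusted p under 0.10, against 6.68%. Their range in the authors' deposited table was −0.42 for Ier2 to 0.60 for Fos, with 6 positive and 4 negative, and their median of 0.11 was near that of all genes, 0.10. Fos was the only member at an unadjusted p under 0.05 (0.0353, adjusted p = 0.171 in the authors' deposited table), against 25.7% of all genes. For each of the 9 members that fell in EpSCs, the interval in Germ lay above the EpSCs estimate, as for Fosb (−0.36 to 0.72), Egr1 (−0.20 to 0.77) and Jund (−0.74 to 0.14). Fosl1 at −0.06 (interval −1.68 to 1.57) and Atf3 at −0.34 (interval −1.72 to 1.05) in that table were less certain. Setting an interval against an estimate leaves out the error in EpSCs, and the EpSCs interval of Fosl1 (−4.75 to −1.59) overlaps its Germ interval.

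Differences of the DPCP effect between the sorted populations were tested with the deposited fold changes and the standard errors rebuilt from the deposited p-values, adjusted by Benjamini-Hochberg over all genes. The effect in EpSCs was lower than in Bulge for 9 of 10 members, all but Ier3, against 4.91% of all genes called in that direction and 10.4% in either. At an unadjusted p under 0.05 the same 9 passed, against 26.2% of all genes. The difference was largest for Atf3, at −5.54 (SE 1.53, adjusted p = 0.00825), and Fosl1, at −5.47 (SE 1.24, adjusted p = 0.000863). Fosb differed by −4.81 (SE 0.97, adjusted p = 0.000158), Fos by −3.81 (SE 0.81, adjusted p = 0.000315) and Egr1 by −3.38 (SE 0.86, adjusted p = 0.00332). The Jun genes differed by less, at −2.62 for Junb (SE 0.60), −2.21 for Jun (SE 0.63) and −1.99 for Jund (SE 0.50), and Ier2 by −2.31 (SE 0.60), with adjusted p between 0.000958 and 0.0105. Ier3 differed by −0.69 (interval −1.47 to 0.08, adjusted p = 0.251).

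The effect in EpSCs was also lower than in Germ for 8 of 10 members, against 6.47% of all genes called in that direction and 12.2% in either. At an unadjusted p under 0.05, 9 passed, Fosl1 included, against 25.2% of all genes. Atf3 differed by −4.12 (SE 1.22, adjusted p = 0.0113), Fosb by −3.67 (SE 0.83, adjusted p = 0.000589), Fos by −3.16 (SE 0.68, adjusted p = 0.000265) and Egr1 by −2.81 (SE 0.67, adjusted p = 0.0011). The 3 Jun genes and Ier2 differed by −1.91 for Junb, −1.65 for Jun, −1.45 for Jund and −1.59 for Ier2, with adjusted p between 0.00448 and 0.0206. Fosl1 differed by −3.11 and was not called (SE 1.16, adjusted p = 0.0549). Ier3 differed by −0.08 (interval −0.82 to 0.65, adjusted p = 0.923). Between Germ and Bulge no member differed by this test, nor at an unadjusted p under 0.05, against 5.99% and 20.9% of all genes, with 2.27% of all genes called lower in Germ. All 10 differences of Germ minus Bulge were negative, from −2.36 for Fosl1 to −0.54 for Jund, with intervals that include 0. The comparisons with EpSCs share the EpSCs libraries, so the calls in them are not independent.

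**Figure D3:**
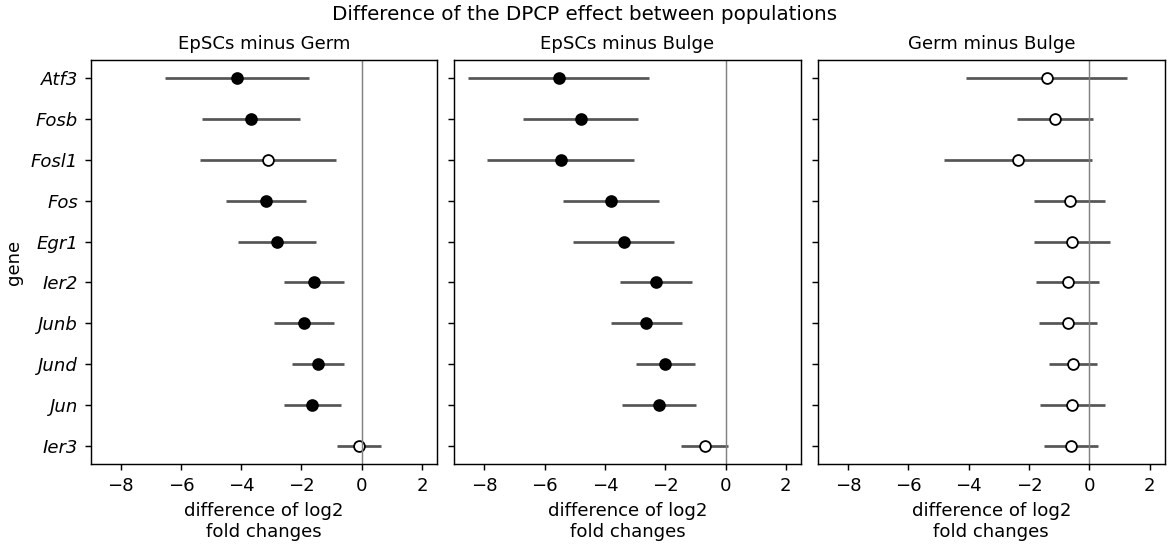
The difference of the DPCP log2 fold changes between populations (x axis) for each member, with approximate 95% intervals; filled points have an adjusted p under 0.05. EpSCs lie below Germ for 8 members and below Bulge for 9, and all intervals of Germ minus Bulge include 0.

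Among 15 further measured genes of the AP-1, ATF and Maf families, 5 fell, 1 rose and the other 9 were not called in EpSCs (median −0.16), a share near the 39.9% of all genes called there. Maf, a basic leucine zipper factor of the large Maf group, was at −2.32 in the authors' deposited table (adjusted p = 1.78e-05), Creb5 at −2.45, the small Maf gene Mafk at −0.90, and Atf6, a sensor of endoplasmic reticulum stress, at 0.94. Fosl2, which encodes the remaining Fos family protein FRA-2, stood at 0.62 in EpSCs in that table and was not called (adjusted p = 0.0554). In Bulge, Fosl2 rose to 2.53-fold, at 1.34 in the authors' deposited table (adjusted p = 0.0207). Jdp2, a repressor that pairs with Jun proteins, fell by 2.59 in Bulge in the same table (adjusted p = 0.0162) and Maff fell by 0.95. In all, 2 rose and 2 fell in Bulge (median 0.31), against 5.12% of all genes called higher and 5.16% lower. None of the 15 was called in Germ (median 0.57), against 1.06% of all genes. The Fosl2 effect did not pass the test of a difference between EpSCs and Bulge (−0.72, SE 0.49, adjusted p = 0.346).

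The wider set of immediate early genes had more calls in the lower direction in EpSCs. Of 36 measured, 19 fell and 6 rose in EpSCs (median −0.90), against 20.0% of all genes called lower and 19.9% called higher. Ccn1, a secreted matrix protein gene, was at −3.74 in the authors' deposited table (13.4-fold lower, adjusted p = 8.53e-06), Klf2 at −3.59 and Ptgs2, the inducible cyclooxygenase, at −3.23. The exception with the smallest adjusted p was Sgk1, a kinase gene induced by glucocorticoids and serum, at 2.26 in that table (adjusted p = 3.57e-06). Chosen after their values were seen, the other 5 that rose in EpSCs were Ccn2 (2.45), Egr2 (1.92), Klf10 (1.16), Plk3 (0.96) and Ier5 (0.90) in the same table. Egr2 thus moved against its paralogue Egr1 in EpSCs. The effect in EpSCs was lower than in Bulge for 13 and higher for 2 of the 36. Over all genes, 4.91% were called in the lower direction and 10.4% in either. It was lower than in Germ for 16 and higher for 3, against 6.47% and 12.2% of all genes. In Bulge, 6 rose and 3 fell (median 0.62), against 5.12% of all genes called higher and 5.16% lower. Among them were Trib1 at 2.88, Ier5 at 2.01 and Plk3 at 2.38, with Ccn2 at −2.85 in the authors' deposited table. Ccn1, named here after its values were seen, fell in Bulge too, at −3.86 in that table (adjusted p = 0.0163). Its effect did not pass the test of a difference between EpSCs and Bulge (0.11, SE 1.31, adjusted p = 0.971). Plk2, a polo-like kinase gene at 2.29 in the authors' deposited table (adjusted p = 0.0382), was the 1 gene called in Germ (median 0.51), against 1.06% of all genes.

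**Figure D4:**
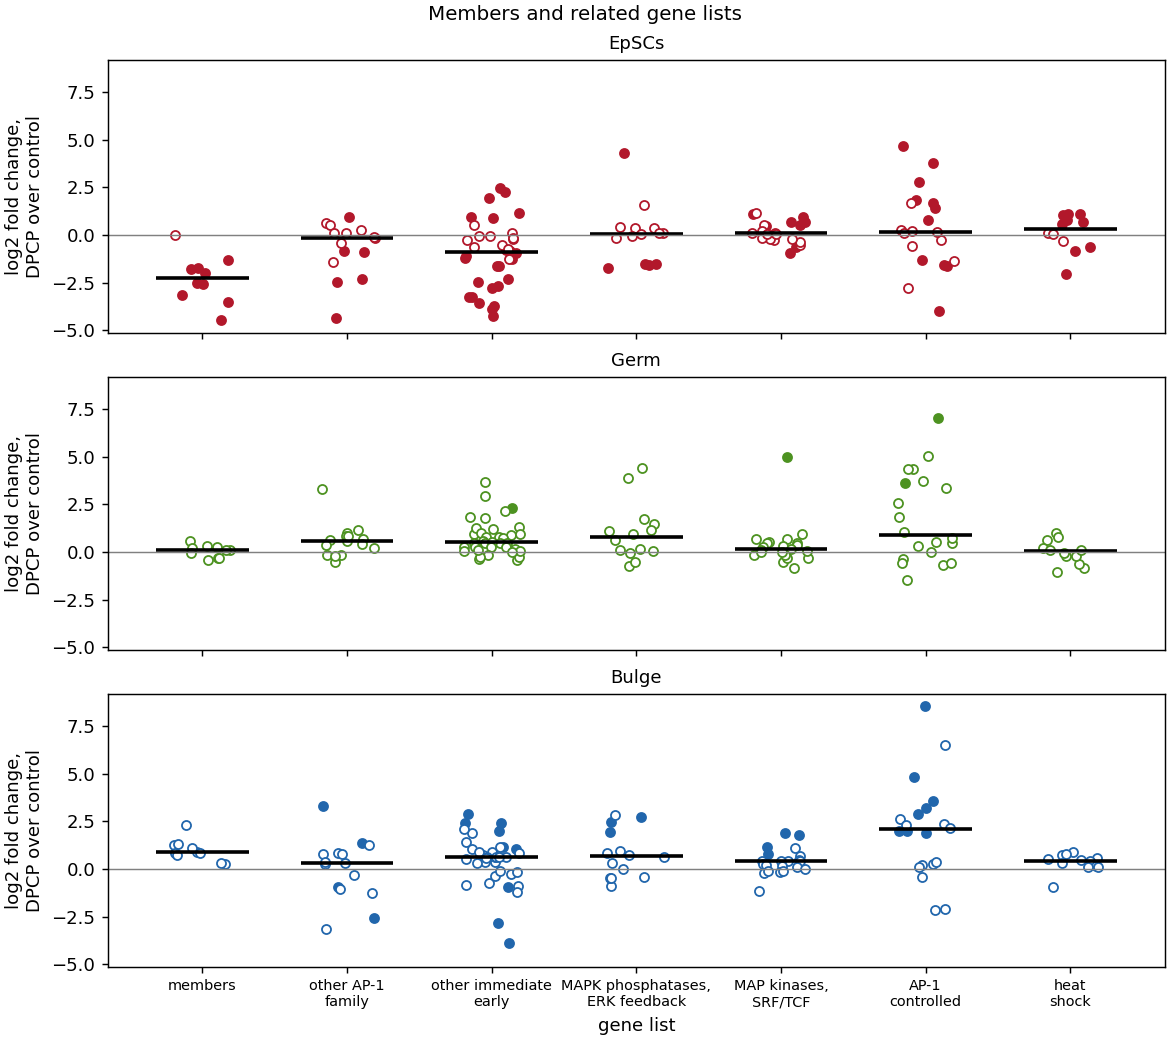
The log2 fold change of DPCP over control (y axis) for the 10 members and for 6 related gene lists (x axis), with a panel for each population; filled points have an adjusted p under 0.05 and bars are medians. In EpSCs the medians of the members (−2.27) and of the other immediate early genes (−0.90) lie below 0, while the AP-1 controlled genes have their highest median in Bulge (2.08).

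Feedback genes that MAP kinase signalling itself induces had 4 of 14 lower and 1 higher in EpSCs (median 0.07), near the 39.9% of all genes called in either direction. These were the ERK pathway inhibitors Spred2 (−1.76), Spry2 (−1.56) and Spry1 (−1.52) and the phosphatase gene Dusp1 (−1.51) in the authors' deposited table, and Dusp4 at 4.31, named after its value was seen. In Bulge 3 of 14 rose and none fell, against 5.12% of all genes called higher and 5.16% lower. Those that rose were the ERK phosphatase genes Dusp6 at 2.74 (adjusted p = 0.00722) and Dusp7 at 1.94 and the nuclear phosphatase gene Dusp5 at 2.48 in that table. None of the 14 was called in Germ (median 0.77), against 1.06% of all genes. Of 21 MAP kinases and SRF and TCF factors upstream, 6 rose and 2 fell in EpSCs (median 0.09), again near the 39.9% of all genes, with Map2k4, a JNK pathway kinase gene, at 1.10 and Mapk3, which encodes ERK1, at 0.69 in the authors' deposited table. In Bulge 4 of the 21 rose, against 5.12% of all genes called higher, namely Map3k5, Elk3, Srf and Map2k4, at 1.88, 1.79, 1.14 and 0.80 in that table. Elk3 was the 1 gene called in Germ, at 4.97 in the same table (adjusted p = 0.0439), against 1.06% of all genes. Elk3 is also strongly expressed in endothelial cells, and 2 of 6 endothelial markers rose in the same Germ comparison, with a median of 4.64; their part in the Elk3 value was not tested.

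Genes with known AP-1 control changed in both directions in EpSCs. Of 20, 7 rose and 4 fell there (median 0.16), against 19.9% of all genes called higher and 20.0% called lower. The authors' deposited table had the stress keratin gene Krt6a at 4.66 (adjusted p = 2.47e-06), the cornified envelope genes Ivl at 3.75 and Sprr1a at 2.80, and the matrix protease gene Mmp3 at −3.98. In Bulge 8 rose and none fell (median 2.08), against 5.12% of all genes called higher, including Sprr1b at 8.51, Sprr1a at 4.81, Krt6a at 3.17 and the hyaluronan receptor gene Cd44 at 1.97 in the authors' deposited table. In Germ 2 rose (median 0.87), Krt6a at 3.64 and Timp1 at 7.02 in that table, against 0.847% of all genes called higher. In the same Germ comparison none of 4 fibroblast markers was called, at a median of 3.48. The part of such cells in the Timp1 value was not tested. Hbegf and Areg, ligands of the EGF receptor that signals to MAP kinases, were chosen after their values were seen: Hbegf was at −1.58 in EpSCs, 0.72 in Germ and 2.90 in Bulge, and Areg at 0.13, 0.33 and 3.55 in the same table. The effect on Hbegf differed by −4.48 for EpSCs minus Bulge (SE 0.96, adjusted p = 0.000377).

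Heat shock genes, which dissociation induces as well, changed in both directions in EpSCs: of 12, 6 rose and 3 fell (median 0.33), against 19.9% and 20.0% of all genes. Dnaja1 (1.02), Hspd1 (1.07) and Hsph1 (1.07), which encode chaperones or their partners, were higher and Dnajb1 (−2.07) lower in the authors' deposited table. None of the 12 was called in Germ (median 0.04) or Bulge (median 0.43), against 1.06% and 10.3% of all genes. The cells were sorted into a lysis reagent, the time from digestion to sorting is not in the labels, and the part of handling in the members' values was not tested.

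Markers of cell identity moved in the same EpSCs comparison, in which 39.9% of all genes were called. All 7 keratinocyte markers looked for were in the table, though levels were not used here, and 5 fell and 1 rose in EpSCs (median −0.72), Krt5 by 1.89 and Krt15 by 1.71 among those that fell in the authors' deposited table. Of 9 bulge markers, 6 rose and 2 fell (median 2.02), with Cd200 at 5.08 and Sox9 at 2.68 in that table. Of 7 interfollicular and infundibular markers, 2 rose (Krt79 and Cst6) and 4 fell (median −1.32), and of 7 hair germ markers, 1 rose and 5 fell (median −1.87). Identity markers moved in Bulge too, where 5.12% of all genes were called higher and 5.16% lower. There 3 hair germ markers fell, 3 interfollicular and infundibular markers fell and 1 rose, and 1 bulge marker fell (Cd200). No keratinocyte marker was called in Bulge. Markers of several other cell types were lower or not called in EpSCs: Ptprc, or CD45, fell by 3.64 in the authors' deposited table, 2 of 6 macrophage markers and 2 of 4 fibroblast markers fell, and none of 4 T cell markers or 6 endothelial markers was called. Of 4 neutrophil markers, 3 rose and 1 fell in EpSCs and 3 rose in Bulge. Cxcr2 rose in both, at 3.65 in EpSCs and 4.02 in Bulge in the authors' deposited table. Mmp8 was the marker that fell in EpSCs, at −3.10 in that table. The others that rose in both were S100a8 (2.26 in EpSCs and 8.93 in Bulge in the same table) and S100a9, which inflamed keratinocytes also express. Of 7 melanocyte markers, 6 rose in Germ, against 0.847% of all genes called higher there, 1 fell in Bulge (Dct) and 1 rose in EpSCs (Mitf). Of the 2 Langerhans cell markers measured, Epcam, which follicle cells also express, rose in EpSCs. The part of a change in the sorted cells in the members' fall was not tested.

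The genes nearest to Fos over the 3 log2 fold changes, by Euclidean distance with the members left out, were Sh2d2a (0.30), Slco2a1 (0.30), Tmem253 (0.38), Zfp36 (0.40) and Ttc7b (0.42). Of these, Slco2a1, a prostaglandin transporter gene, was called lower in EpSCs and higher in Bulge (adjusted p = 5.73e-05 and 0.0248 in the authors' deposited table), and Zfp36, whose protein speeds the decay of unstable mRNAs, was called lower in EpSCs (adjusted p = 0.000691 in that table), as was Ttc7b (adjusted p = 0.00203). Sh2d2a and Tmem253 were called in no population. Among the members, Egr1 was nearest to Fos, at a distance of 0.50, and Ier3 farthest, at 2.68. Each distance rests on 3 values per gene and carries no test.

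The members lie on 8 chromosomes in GENCODE M21 on GRCm38. Fos (chromosome 12, 85473890 to 85477273, plus strand), Fosb (chromosome 7, 19302696 to 19310051, minus strand), Ier2 (chromosome 8, 84661331 to 84662852, minus strand), Ier3 (chromosome 17, 35821684 to 35822923, plus strand) and Egr1 (chromosome 18) overlap no other annotated gene. The other 5 do, each on the opposite strand, and whether reads were counted by strand is not given in the sources used here. Fosl1 (chromosome 19, 5447547 to 5455946) overlaps Ccdc85b, which fell in EpSCs, at −1.23 in the authors' deposited table (adjusted p = 0.00403), and stood at −0.03 in Germ and −0.59 in Bulge. Junb (chromosome 8, 84974484 to 84978718) overlaps Prdx2, a peroxidase gene, which fell in EpSCs, at −0.53 in that table (adjusted p = 0.0173), and stood at −0.85 in Germ and −0.30 in Bulge. The part of those reads in the Fosl1 and Junb values was not tested. Jun (chromosome 4, 95049034 to 95052222) and Jund (chromosome 8, 70698949 to 70700616) each overlap an antisense RNA gene, and Atf3 (chromosome 1, 191170296 to 191218039) overlaps a small RNA gene.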

How the data were processed

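Cells from trypsin-digested dorsal skin were sorted into a lysis reagent and their RNA sequenced as paired ends from stranded mRNA libraries, per the labels' protocols and the series' design text, which also gives the days. The submitters' processing notes name limma 3.60.6, STAR 2.7.6a, cutadapt 3.5 and FastQC 0.11.9, and the builds GRCm38 and mm10. Counter, filter on low expression, normalization and limma model: not given in the sources used here.

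For each population and each of 13816 gene IDs, the deposited table holds the authors' log2 fold change, in which a positive value is higher with DPCP. It also holds the authors' deposited p-value and its adjusted form, which matched a Benjamini-Hochberg adjustment over all IDs. Those 9 columns were used. A further 36 columns of values per library were not, because their names matched no sample label. The planned fits on TPM were therefore replaced by the authors' limma test, and depth is unknown.

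A gene was called at an adjusted p under 0.05. Dividing each fold change by the normal quantile of its p gave a standard error and from it approximate 95% intervals. The difference of 2 fold changes was tested against its combined standard error with a normal reference, adjusted over all genes. This ignores how limma pools the spread. It also treats the 2 fold changes as independent, and whether the populations were sorted from the same mice is not known here. A run on simulated data drew independent errors from the same normal model, so it cannot show what these omissions change. The members and lists were chosen with earlier results of these data known. All 10 members were named, and up to 4 called genes of each list and comparison by adjusted p, except 1 result that is not reported here. Some listed genes also stand in a second list (Maff, Srf, Krt15, Lgr5, Lor). Gene positions came from GENCODE M21 by gene ID (8 of 10 with the same version) and promoters from RefSeq by symbol (7 of 10 matched). Python 3.11.15, scipy 1.17.1 and pandas 2.3.3 were used.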

Additional observations from a re-analysis of the deposited data

Results flagged for a closer look

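The DPCP effect differed between populations by the test of the difference itself for the members below, all with a lower log2 fold change in EpSCs. The values are differences of log2 fold changes. For EpSCs minus Bulge they were −5.54 for Atf3, −5.47 for Fosl1, −4.81 for Fosb, −3.81 for Fos, −3.38 for Egr1, −2.62 for Junb, −2.31 for Ier2, −2.21 for Jun and −1.99 for Jund. For EpSCs minus Germ they were −4.12 for Atf3, −3.67 for Fosb, −3.16 for Fos, −2.81 for Egr1, −1.91 for Junb, −1.65 for Jun, −1.59 for Ier2 and −1.45 for Jund. No sample could be examined singly, since values per sample were not used.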

How the results depend on the processing

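In EpSCs, 9 members stayed called with an adjusted p under 0.01 or 0.10, with a log2 fold change over 1 required, with fold changes centred on the median of all genes, and among protein-coding genes only, and 8 with Benjamini-Yekutieli adjustment, which lost Jun. In Bulge the count was 2 (Fos and Fosl1) at an adjusted p under 0.10, against 0 at 0.05. For EpSCs minus Germ, 4 members stayed called in place of 8 with Benjamini-Yekutieli adjustment and likewise 4 at an adjusted p under 0.01, while 9 were called under 0.10. For EpSCs minus Bulge the counts were between 7 and 9. Rebuilding standard errors with a t quantile of 4 degrees of freedom changed no count. Centring turned the sign of 1 value, that of Ier3 for EpSCs minus Germ, to 0.0184 (adjusted p = 0.982), against −0.08 without centring. Of 330 values of single members under the alternatives, 314 kept their direction and side of the threshold, 12 lost and 3 gained a call. Part of this was fixed in advance. A member called at 0.05 must pass 0.10, and 1 not called cannot gain a call under a stricter setting. The 314 are therefore not a measure of how stable the calls are.

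No paired analysis was possible because the library columns carry no sample label. For the same reason leaving out replicates, another pseudocount and another filter were not run. Depth is unknown, so no limit from counting error can be given for any member, and members with few reads cannot be told from the others.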
